A study of Mus musculus with 12 samples.

Results

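The response to a high-fat diet that floxed and IEKO intestines had in common was measured by bulk RNA-seq, as the difference between 6 high-fat diet (HFD) libraries and 6 chow libraries with genotype held as a covariate. All 12 of the 12 libraries of the series entered the comparison, and all genes with enough counts were tested, 17602 of the 47643 in the table. The 4 groups of 3 libraries were floxed mice (Pparafl/fl, both Ppara alleles flanked by recombinase sites) on chow, floxed mice on HFD, and mice of the genotype PparaΔIE, called IEKO here, on each of the same diets. By convention, the superscript ΔIE marks a gene deleted in intestinal epithelial cells. All mice were C57BL/6 males aged 7 to 8 weeks, and HFD, labelled 60% HFD, or chow was given for 10 days. The labels name neither the recombinase line nor the deleted exons, give the tissue only as intestine, and do not say if each library is from its own mouse. The p-values therefore measure the spread between these libraries, which may be technical.

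Fat enters the intestine as fatty acids and monoglycerides, which the absorptive cells of the epithelium take up, rebuild into triglyceride and either export on chylomicrons, store in lipid droplets or burn in mitochondria and peroxisomes. PPARA, the nuclear receptor that Ppara encodes, binds fatty acids and switches on many genes of fat oxidation. The same epithelium also makes cholesterol under control of the SREBP2 transcription factor, and it holds a standing defence against the gut flora that includes secreted REG3 lectins and genes induced by interferon.

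Total expected counts ran from 33621040 to 53959405 per library, so that 1 CPM (a count scaled to a library of 1e6) stood for 33.6 to 54.0 counts before the scaling between libraries. Epithelial markers were abundant in every library, and the ileal bile acid genes Slc10a2 (929 to 1512 CPM on chow, 964 to 1390 on HFD) and Fabp6 (3069 to 3897 and 3108 to 4502) were high in all 12, while no stomach marker passed the filter on low counts. Other markers of the stretch of intestine moved between libraries. Lct, the lactase of the proximal gut, stood at 2.01 to 2.75 CPM in the floxed chow libraries, at 0.453, 102 and 57.6 in IEKO chow libraries 1 to 3, and at 50.2 to 256 on HFD. For 333 genes at least 2-fold higher on HFD in floxed mice, IEKO chow library 2 stood 53.0% of the way from floxed chow to floxed HFD, IEKO chow library 3 stood 35.5% and IEKO chow library 1 stood 1.25%. IEKO chow library 3 lay between the other libraries of its group for 97.3% of the 1056 genes on which those differed by 1.5-fold, and floxed chow library 1 did so for 86.4% of 110 genes. In the other libraries this share was 21.7% to 74.8%. Group counts are therefore also given without floxed chow library 1 and IEKO chow library 3 (the 2 intermediate chow libraries), and with the mean log2 level of 3 proximal markers as a further covariate. Over all genes, the share called was 14.3% in the fit without those libraries (5.82% higher and 8.52% lower) and 6.56% in the fit with the proximal score (2.94% higher and 3.62% lower). It was 1.99% in the 6 IEKO libraries alone (0.754% higher and 1.23% lower) and 20.2% in the 6 floxed libraries alone (10.4% higher and 9.80% lower). Counts of list members in these fits are to be read against these shares. Of the 150 called genes that the naming rule picked, 122 were also called in the fit without those libraries and 82 in the fit with the proximal score. That score was 0.98 to 1.07 in floxed chow, 0.62, 3.12 and 2.80 in IEKO chow libraries 1 to 3, and 2.06 to 3.53 on HFD. The mean log2 level of 4 ileal markers moved the same way, at 9.01 to 9.13, at 9.07, 9.82 and 9.66, and at 9.72 to 10.23. Whether the score tracks the stretch of intestine sampled was not tested. Where that score ends a call, diet and what the score tracks cannot be told apart. A call kept with the score is no test of the stretch of intestine.

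Ppara itself, the targeted gene (chromosome 15, 85734983 to 85802819, mm10), averaged 19.7 ± 2.01 CPM in floxed chow, 36.6 ± 2.79 in floxed HFD, 12.3 ± 3.64 in IEKO chow and 13.3 ± 3.46 in IEKO HFD (SD, n = 3 each). Its libraries overlapped between the diets, and the shared diet effect did not pass the test (log2 fold change 0.51, SE 0.19, edgeR adjusted p = 0.074). On either diet the 3 IEKO libraries lay below the 3 floxed libraries.

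The shared diet effect reached many genes, and most of the changes were small. At an adjusted p under 0.05 in edgeR's quasi-likelihood test with Benjamini-Hochberg adjustment over all genes tested, 2206 genes were called higher on HFD (12.5% of genes) and 2356 lower (13.4%), 25.9% in all. Only 199 of the increases and 174 of the decreases were at least 2-fold, and the median size of a called change was 0.37 on the log2 scale. All 6 HFD libraries lay above all 6 chow libraries for 693 genes (3.94% of those tested) and below them for 748 (4.25%), 8.19% in either direction. Of these genes, 671 and 736 were also called. Rose and fell are said only of genes called in this test, fold changes are HFD over chow or its inverse, and SE is the standard error of the log2 fold change.

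Among the 12 largest increases with no overlap between the diets were genes of fat and sugar fuel use, and among the 12 largest decreases were surface proteins, a neuropeptide precursor, a metallothionein and interferon-induced genes. Pdk4, a kinase that shuts pyruvate out of the mitochondrial citric acid cycle (chromosome 6, 5483351 to 5496309), stood at 0.0267, 0.138 and 0.369 CPM (lowest, median and highest) in the 6 chow libraries and at 0.788, 16.4 and 27.0 on HFD. It was almost silent in every chow library, and IEKO HFD library 2, at 0.788 CPM, lay far below the other 5 HFD libraries. Its rise was 108-fold (log2 6.76, SE 0.84, adjusted p = 5.8e-04), and without IEKO chow library 2 the log2 fold change was 7.41. Plet1, a cell surface protein (chromosome 9, 50494525 to 50505482), moved the other way, from 15.9, 36.2 and 98.3 CPM on chow to 0.471, 0.735 and 1.94 on HFD. The libraries stood apart by a wide margin, and the drop was 44.0-fold (log2 -5.46, SE 0.49, adjusted p = 1.1e-04).

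Apoa4, an apolipoprotein of chylomicrons, stood at 142 to 320 CPM on chow and 883 to 2647 on HFD, a 6.22-fold rise (adjusted p = 8.4e-04). G6pc, the glucose-6-phosphatase that releases free glucose, went from 1.20 to 1.92 CPM up to 3.72 to 15.6, a 6.73-fold rise (adjusted p = 6.0e-04) with a log2 fold change of 2.80 in floxed and 2.71 in IEKO mice. Fabp1, a fatty acid carrier, rose 12.9-fold (log2 3.69, SE 0.79, adjusted p = 0.0084), from 1.98 to 3.83 CPM on chow to 9.06 to 156 on HFD. The HFD libraries were widely spread for Fabp1, with the 3 floxed libraries at the top, and its proximal-score fit gave an adjusted p of 0.14. Acot12, an acyl-CoA thioesterase, rose 10.0-fold (log2 3.32, and 3.96 without IEKO chow library 2), Acaa1b, a peroxisomal thiolase, 7.26-fold, and Aqp3, a channel for water and glycerol, 5.94-fold. The other genes among the 12 largest increases were Gimd1 (7.78-fold), Gal3st2b (6.57-fold), Slc23a1, a vitamin C transporter (4.68-fold) and the heat shock genes Hspa1a (6.11-fold) and Hspa1b (4.71-fold).

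Tac1, which encodes the precursor of substance P, fell 7.84-fold (log2 -2.97, SE 0.24, adjusted p = 4.2e-05), from 22.2, 34.0 and 53.5 CPM on chow to 3.21, 3.87 and 6.39 on HFD. Cd177, a GPI-anchored surface protein best known from neutrophils, went from 22.0 to 29.4 CPM down to 3.33 to 6.59, and of the 24 genes it had the smallest p-value (5.73-fold lower, adjusted p = 5.6e-08). Mt2, a metal-binding metallothionein, fell 6.76-fold from 12.3 to 23.2 CPM down to 1.44 to 3.33 (adjusted p = 3.9e-06). In both Cd177 and Mt2 the gap between the diets was wider than the whole spread within either diet on a log scale. The GPI-anchored proteins Gml2 and Gml fell 5.48-fold and 4.82-fold, with counts that may be split between these paralogues, and Cd274, which encodes the T cell inhibitory ligand PD-L1, fell 4.35-fold from 13.8 to 29.1 CPM down to 3.88 to 6.42. The remaining 5 of the 12 largest decreases, Gbp2, Igtp, Ifit2, Iigp1 and Gzmb, belong to interferon-induced defence and cytotoxic cells.

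**Figure D1:**
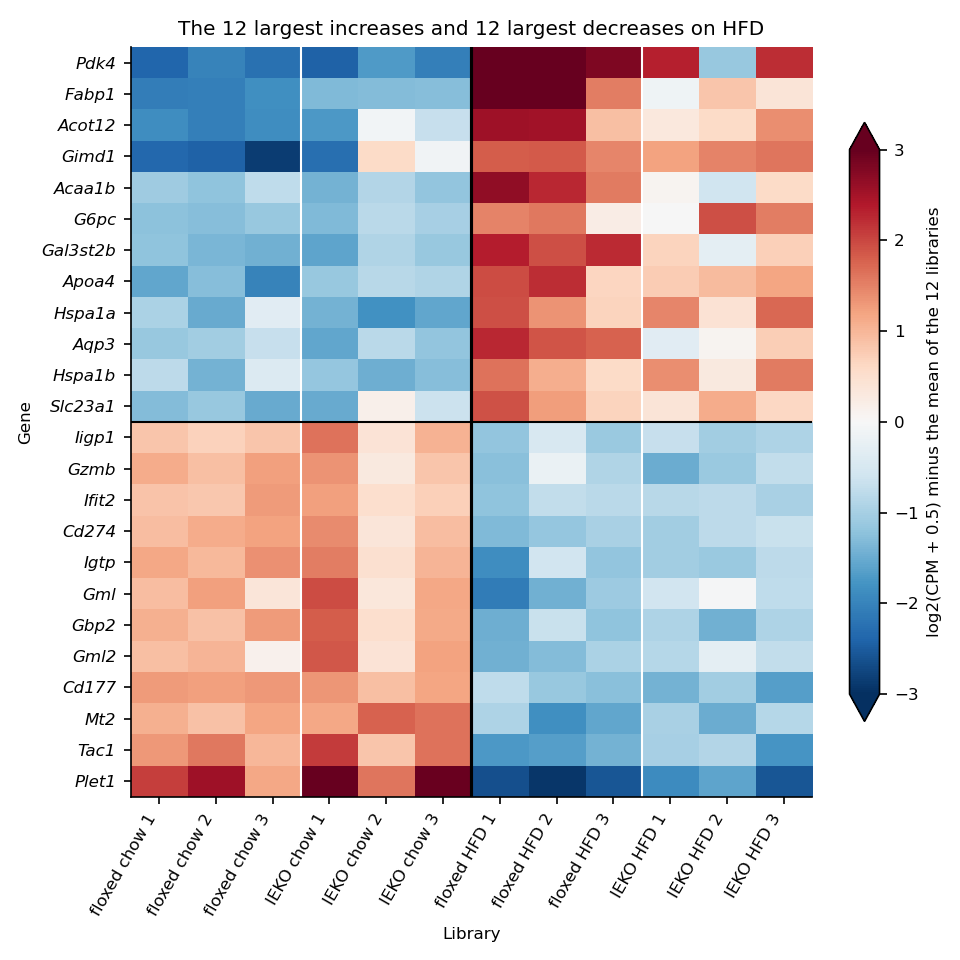
Heatmap of the 12 largest increases and 12 largest decreases (rows) in the 12 libraries (columns, chow left and HFD right of the black line). Colour is log2(CPM + 0.5) minus the mean of the gene over the 12 libraries, with the scale ending at 3 in each direction. Each gene separates the 6 chow from the 6 HFD libraries, which the rule for naming them required, while IEKO HFD library 2 is pale for Pdk4 and IEKO chow library 2 is pale for Gimd1, Acot12 and Slc23a1.

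Both genotypes shared the direction of nearly all of these changes, which the choice of genes by a common effect largely fixes. Of the 4562 called genes, 4561 had the same sign in floxed and IEKO mice taken separately. The exception, an immunoglobulin segment named after its values were seen, was Igkv12-38 (log2 fold change -3.33, SE 1.03, with -5.95 in floxed and 1.89 in IEKO). In separate contrasts of 3 against 3 libraries, 2082 of the 4562 were also called in floxed mice, where 13.4% of all genes were called (6.80% higher and 6.57% lower), and 1358 in IEKO mice, where 8.20% were (3.44% higher and 4.76% lower). In both contrasts 845 genes were called, and 1967 passed only with the genotypes combined. The median size of the change was 0.37 in floxed and 0.34 in IEKO on the log2 scale. The genotype by diet interaction passed the edgeR test for none of the 4562 genes, with 300 of them at an unadjusted p under 0.05. Over all genes tested it passed for 1 (0.00568%), with 1116 at an unadjusted p under 0.05.

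**Figure D2:**
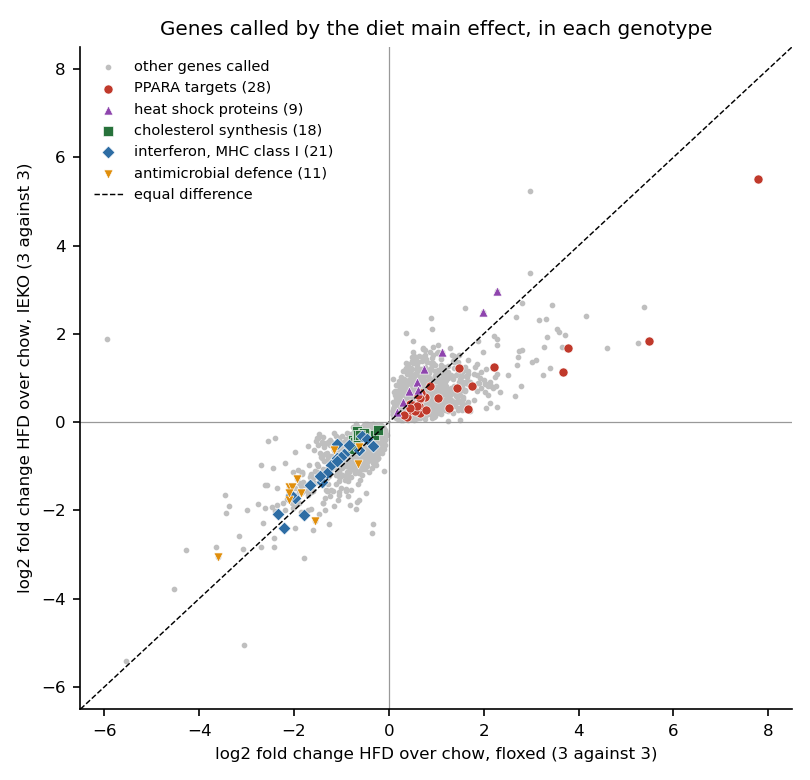
Log2 fold change HFD over chow in floxed (x axis) and IEKO mice (y axis), 3 against 3 libraries each, for the 4562 genes called by the shared diet effect. Coloured symbols are called members of 5 lists, with their number in the key, and the dashed line marks equal differences. Interferon and antimicrobial genes lie near the line at lower left, the 9 heat shock genes lie above it, and the 28 PPARA target genes lie below it at right.

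Most genes of fat oxidation rose. Of 33 tested PPARA target genes (38 were listed, and several also belong to the oxidation lists), 28 rose (12.5% of all genes did) and none fell, with a median log2 fold change of 0.58 against 0.01 over all genes. The 5 that did not pass were Ehhadh (log2 0.07), Acadm (-0.06), Ech1 (-0.01), Decr1 (-0.14) and Acot8 (-0.14). In 13 of the 33 all HFD libraries lay above all chow libraries, where 3.94% of all genes did so. Without floxed chow library 1 and IEKO chow library 3, 22 rose, where 5.82% of all genes did, and with the proximal score as a covariate 16 did, where 2.94% of all genes did. In the IEKO libraries alone 4 rose. The list median was 0.65 in floxed and 0.39 in IEKO mice, and all 28 called targets had the larger fold change in floxed mice, as did 2612 of the 4562 called genes. Their interaction with genotype passed for none in edgeR, with 10 of the 33 at an unadjusted p under 0.05.

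For the carnitine shuttle that carries long-chain fatty acids into mitochondria, the inner membrane carrier Slc25a20 stood at 53.4, 73.9 and 75.5 CPM on chow and at 85.4, 130 and 139 on HFD. The diets did not overlap, and the rise was 1.79-fold (log2 0.84, SE 0.09, adjusted p = 4.4e-05), with 0.87 in floxed and 0.81 in IEKO mice on the log2 scale. Cpt2, the carnitine transferase of the inner membrane, rose 1.52-fold from 55.5 to 72.3 CPM up to 73.5 to 119 (adjusted p = 4.2e-05). The thioesterase Acot2, which frees fatty acids inside mitochondria, rose 2.55-fold (log2 1.35, SE 0.17, adjusted p = 9.9e-05), although the highest chow library, at 3.15 CPM, exceeded the lowest HFD library, at 2.95. Counts of Acot2 may be split with its near-identical neighbour Acot1. Over the whole mitochondrial oxidation list, 15 of 20 genes rose, and Echs1 (log2 -0.42), an enoyl-CoA hydratase of the short-chain steps, fell. The 4 others were Acadm, Acads (-0.16), Decr1 and Etfa (0.01). In the fit with the proximal score 8 of the 20 rose, where 2.94% of all genes did, and in the IEKO libraries alone 1 did, where 0.754% of all genes did.

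In the peroxisome, which shortens very long and branched fatty acids, 10 of 23 tested genes rose (43.5%, against 12.5% of all genes). Another 2 fell (8.70%, against 13.4%), Nudt19 (log2 -0.33) and Decr2 (-0.16). The acyl-CoA importer Abcd3 stood at 182, 204 and 217 CPM on chow and at 267, 388 and 451 on HFD. No chow library reached an HFD library, and the rise was 1.83-fold (log2 0.88, SE 0.09, adjusted p = 2.6e-05). Scp2, a sterol carrier protein with a peroxisomal thiolase form, rose 1.55-fold from 279 to 296 CPM up to 366 to 540, and Pex11a, which drives peroxisome division, 1.53-fold from 14.6 to 17.1 CPM up to 19.3 to 27.0. Hsd17b4 and Cat, the multifunctional oxidation enzyme and catalase, had log2 fold changes of 1.41 and 1.10. In the proximal-score fit 9 of the 23 peroxisomal genes were called higher, where 2.94% of all genes were.

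Uptake and activation of fatty acids followed less firmly. Of 12 tested genes 7 rose (58.3%, against 12.5% of all genes) and 1, Got2 (log2 -0.27), fell (8.33%, against 13.4%). But without floxed chow library 1 the number that rose was 2, and without IEKO HFD library 3 it was 3. Without floxed chow 2, floxed chow 3, IEKO chow 3 or floxed HFD 2 it was 4. The proximal-score fit left 1 of the 12, where 2.94% of all genes rose. Fabp2, the fatty acid carrier of the small intestine and one of its most abundant transcripts, stood at 1949, 2097 and 2361 CPM on chow and at 3139, 4802 and 6258 on HFD. The diets did not overlap, and the rise was 2.15-fold (log2 1.11, SE 0.14, adjusted p = 1.6e-04).

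Fabp1 also carries in its promoter the only match among the PPARA targets to the direct repeat bound by PPAR and RXR pairs, so its sequence is shown. The RefSeq promoter table (GRCm38.p6, the assembly of mm10) held 26 of the 33 tested targets. In the 250 bases before the start site, searched on both strands, a repeat of the half-site AGGNCA with 1 base between was found in 1 of the 26 (3.85%) and in 0.4% of all 27025 genes with a promoter. The window of Fabp1 is chr6:71199629-71199878, plus strand, with the match in capitals, 67 to 55 bases before the start and read on the opposite strand.
Fabp1: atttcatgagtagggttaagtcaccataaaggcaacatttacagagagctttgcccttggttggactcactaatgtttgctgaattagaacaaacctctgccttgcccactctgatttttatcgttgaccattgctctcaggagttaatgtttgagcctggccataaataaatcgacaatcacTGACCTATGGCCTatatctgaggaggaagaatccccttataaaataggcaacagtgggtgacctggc
No match in the other 25 windows says only that these letters are not in them.

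Of 13 tested genes of chylomicron assembly 6 rose (46.2%, against 12.5% of all genes), each with no overlap between the diets. Sar1b (log2 -0.31), a GTPase of vesicle export, fell (7.69%, against 13.4%), and 6 did not pass. In the proximal-score fit 5 rose, where 2.94% of all genes did, and in the IEKO libraries alone 3 did, where 0.754% of all genes did. Apob, the backbone protein of the particle, stood at 4720, 5512 and 6226 CPM on chow and at 8283, 9875 and 11199 on HFD. Every HFD library lay above every chow library, and the rise was 1.79-fold (log2 0.84, SE 0.10, adjusted p = 7.0e-05). Angptl4, which inhibits lipoprotein lipase, rose 3.35-fold from 15.1 to 25.2 CPM up to 42.6 to 92.3 (log2 1.74, adjusted p = 4.9e-04). The other 3 besides Apoa4 were Creb3l3, a transcription factor of apolipoprotein genes (log2 1.29), Apoc3 (1.16) and Apoa1 (0.50). Mttp, which loads lipid onto Apob, had a log2 fold change of 0.24 and did not pass (adjusted p = 0.058), nor did the apolipoprotein gene Apoc2 (0.48, with 1.24 in floxed and -0.30 in IEKO, adjusted p = 0.53).

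Triglyceride synthesis and lipid droplets gave a mixed picture, with 6 of 20 genes higher (30.0%, against 12.5% of all genes) and 2 lower (10.0%, near the 13.4% of all genes). In the proximal-score fit 1 was higher, Cidec, and none lower. Cidec, a droplet coat protein that promotes droplet growth, rose 2.22-fold from 11.8 to 20.0 CPM up to 27.4 to 53.6 (log2 1.15, SE 0.18, adjusted p = 0.0011), and the diets did not overlap. Lpin1 and Lpin3, phosphatidate phosphatases, fell (log2 -0.50 and -0.28), while Agpat2 and Agpat3, acyltransferases of the same route, rose (0.34 and 0.39). Of 4 tested genes of omega-oxidation 3 rose, Cyp4v3 (log2 0.68), Aldh3a2 (0.43) and Cyp4f14 (0.23), but none of them with the proximal score (adjusted p = 0.11 to 0.28). Cyp4b1 (0.71) did not pass (adjusted p = 0.061). Cyp4a10 was too low to test, with 0 counts on chow and 43 on HFD, 38 of them in 1 library.

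Oxct1, which starts ketone use, fell 1.48-fold from 243 to 306 CPM down to 159 to 197 (log2 -0.56, SE 0.07, adjusted p = 6.5e-05). Bdh1, an enzyme of ketone interconversion (log2 -0.43), and the kinase Pdk1 (-0.58) fell as well. Pdk4 was thus the only pyruvate dehydrogenase kinase of the 4 that rose, since Pdk2 (0.10) and Pdk3 (-0.08) did not pass. Within the PPAR receptors, RXRs and PGC1 coactivators, Pparg fell 2.39-fold from 7.66, 9.33 and 10.9 CPM on chow to 3.46, 3.86 and 4.37 on HFD (log2 -1.25, SE 0.10, adjusted p = 2.8e-06), and no libraries overlapped. Ppargc1a rose (log2 0.29, adjusted p = 0.039), in 3 of the 12 fits without 1 library, and Ppard, Rxra, Rxrb and Ppargc1b did not pass.

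**Figure D3:**
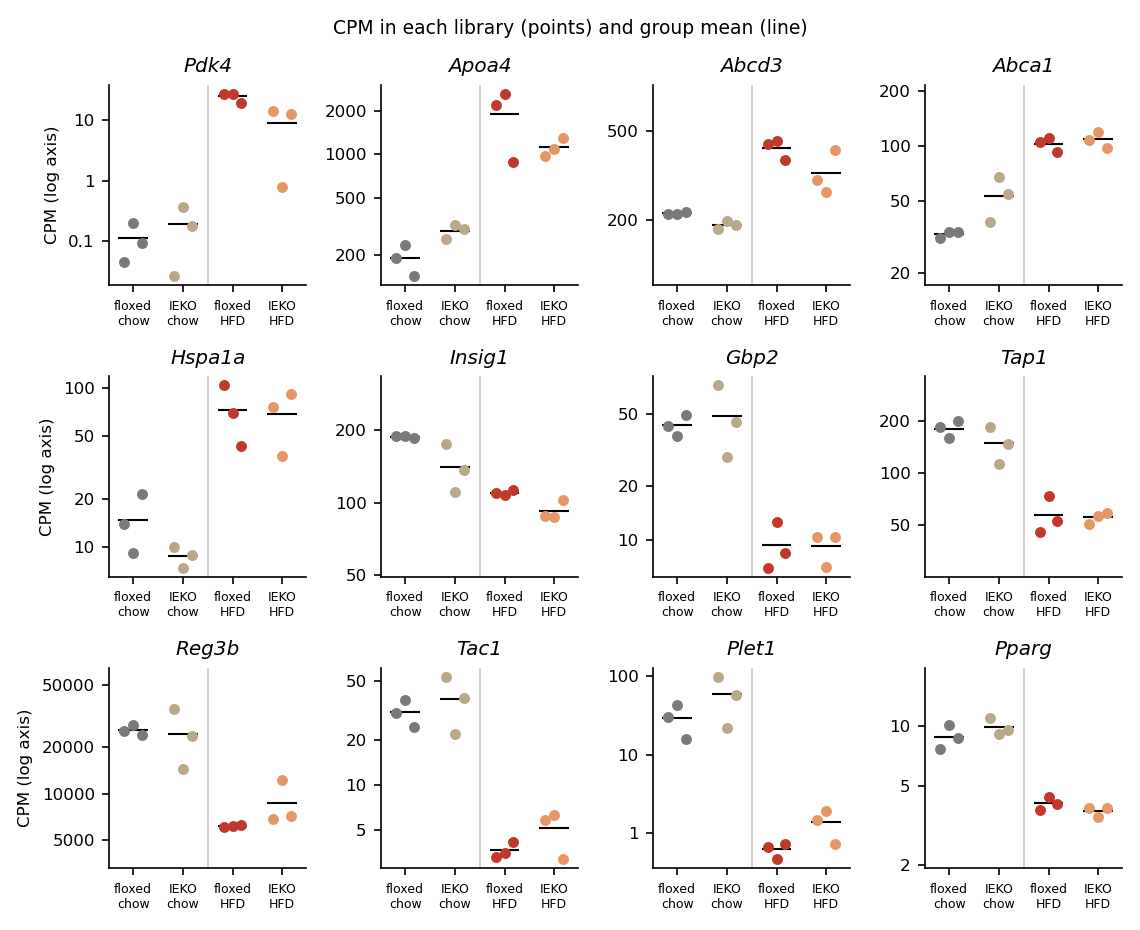
CPM on a log axis in each library (points) with the mean of each group of 3 (line) for 12 genes, chow left and HFD right of the grey line. Fat, sterol efflux and heat shock genes (Pdk4, Apoa4, Abcd3, Abca1, Hspa1a) are higher in all HFD libraries, while Gbp2, Tap1, Reg3b, Tac1, Plet1 and Pparg are lower in all of them. Insig1 overlaps through IEKO chow library 2 (111 CPM on chow at the lowest, 113 on HFD at the highest).

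Most genes of cholesterol synthesis fell. Of 24 genes of the pathway and of SREBP2 control, 18 fell (13.4% of all genes did) and none rose, with a median log2 fold change of -0.42. Mvd, a decarboxylase of the mevalonate route, stood at 48.7, 70.9 and 79.7 CPM on chow and at 39.3, 43.8 and 46.8 on HFD. Its libraries lay close to each other without overlapping, and the drop was 1.55-fold (log2 -0.63, SE 0.08, adjusted p = 1.2e-04). Insig1, the sterol-sensitive brake on SREBP processing, fell 1.61-fold (log2 -0.69, SE 0.09, adjusted p = 1.2e-04) and Mvk, mevalonate kinase, 1.46-fold (log2 -0.55, adjusted p = 1.3e-04). Among the 6 genes that did not pass were Sc5d and Dhcr7, late enzymes of the route, Stard4, a sterol carrier, and Srebf2, which encodes SREBP2. Without the 2 intermediate chow libraries 16 fell, where 8.52% of all genes did. With the proximal score as a covariate 6 fell, where 3.62% of all genes did, and in the IEKO libraries alone none did. The list median was -0.57 in floxed and -0.28 in IEKO mice. The letters TCACNCCAC of the sterol regulatory element were present in 1 of 16 members with a promoter in the RefSeq table, Hmgcs1 (6.25%), and in 1.22% of all genes.

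Of 10 sterol transport genes 4 rose (40.0%, against 12.5% of all genes), 1 fell (10.0%, near the 13.4% of all genes) and 5 did not pass. With the proximal score 2 rose, Abca1 and Abcg1, and none fell. Abca1, the pump that loads cholesterol onto HDL and a target of the LXR receptors, stood at 31.3, 36.1 and 67.2 CPM on chow and at 92.9, 106 and 119 on HFD. All HFD libraries exceeded all chow libraries, IEKO chow library 2 being the highest on chow, and the rise was 2.51-fold (log2 1.33, SE 0.15, adjusted p = 1.5e-04). With the proximal score its adjusted p was 1.0e-04. Other LXR targets, Abcg1 (log2 0.48) and Mylip (0.72), the ligase that degrades the LDL receptor, rose, as did the HDL receptor Scarb1 (0.60), while Soat2, which esterifies cholesterol, fell (-0.31). The LXR genes Nr1h2 and Nr1h3 did not pass (-0.04 and -0.08). Among 15 genes of fatty acid synthesis 4 fell (26.7%, against 13.4% of all genes), Acly (-0.41), Acss2 (-0.37), Fads2 (-0.35) and Fasn (-0.25). Another 3 rose (20.0%, against 12.5%), Acacb (1.37), Elovl5 (0.34) and Srebf1 (0.30), and with the proximal score 3 fell and 1 rose.

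Interferon-induced genes and the machinery that loads MHC class I fell together. Of 23 tested genes 21 fell (91.3%, against 13.4% of all genes) and none rose, with a median log2 fold change of -0.99. In 16 of the 23 all HFD libraries lay below all chow libraries, where 4.25% of all genes did. The 2 genes that did not pass were B2m (log2 -0.19, adjusted p = 0.10) and H2-K1 (-0.06), the light chain and a heavy chain of MHC class I itself. In the proximal-score fit 13 fell, where 3.62% of all genes did. Without floxed chow library 1 and IEKO chow library 3, 20 did, where 8.52% of all genes did. In the 6 IEKO libraries tested alone, where 1.23% of all genes fell, 10 of the 23 fell. The T cell marker sum, which includes the granzymes Gzma and Gzmb, was 102 to 203 CPM on chow and 71.1 to 130 on HFD. Only 3 of its 13 genes fell, the granzymes and Ccl5, while the T cell receptor and lineage genes did not pass. The part of T cells in the result was not tested. In whole tissue, fewer cells of a type and less RNA per cell cannot be told apart.

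The 4 lowest fold changes in the list were those of Gbp2, Igtp, Iigp1 and Irgm2, GTPases that attack intracellular microbes. Gbp2 (chromosome 3, 142620602 to 142638008) stood at 28.9, 44.1 and 72.7 CPM on chow and at 7.06, 9.44 and 12.6 on HFD. Every chow library, of which IEKO chow 2 was the lowest, lay above every HFD library, and the drop was 4.92-fold (log2 -2.30, SE 0.24, adjusted p = 1.7e-04). Igtp stood at 45.1, 69.5 and 94.6 CPM on chow and at 8.53, 15.1 and 21.6 on HFD, 4.60-fold lower (adjusted p = 2.5e-04). Igtp overlaps Irgm2 in the annotation, so reads of these neighbours may be shared. Iigp1 fell 3.85-fold from 12.4 to 29.6 CPM down to 3.73 to 6.43, and Gbp7 2.62-fold from 19.5 to 34.6 CPM down to 8.62 to 12.3 (adjusted p = 2.1e-05).

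Antigen processing and the signalling layer moved with them. Tap1, which pumps peptides to MHC class I, stood at 113, 172 and 201 CPM on chow and at 45.4, 54.4 and 73.7 on HFD. The diets did not overlap, and Tap1 fell 2.93-fold (log2 -1.55, SE 0.14, adjusted p = 4.2e-05). Psmb9, a subunit of the immunoproteasome, had a log2 fold change of -1.23, its partner Psmb8 one of -0.67, and the transcription factor Irf1 one of -0.99. Oas1a, a sensor of double-stranded RNA, fell 1.87-fold from 35.1 to 52.3 CPM down to 21.9 to 28.2 (adjusted p = 3.8e-05), and Ifit2, an antiviral RNA-binding protein, 3.85-fold from 10.1 to 17.7 CPM down to 2.73 to 3.99 (adjusted p = 3.0e-06). MHC class II genes, which professional antigen-presenting cells carry, had 1 of 7 members lower (14.3%, near the 13.4% of all genes), H2-DMb1 (log2 -0.40, adjusted p = 0.027). The genotypes went different ways here. All 7 fold changes were negative in floxed mice (median log2 -0.42) and 6 of 7 were positive in IEKO mice (median 0.19), with 6 of the 7 interactions at an unadjusted p under 0.05 and none passing in edgeR after adjustment. The call for H2-DMb1 ended without IEKO chow library 1 or floxed HFD library 3, and its proximal-score fit gave an adjusted p of 0.39.

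The promoters of 4 of these genes are shown because each holds the letters of the interferon-stimulated response element (ISRE), a motif known to be bound by STAT and IRF factors. The letters GAAA, any 2 bases and GAAA again, searched on both strands in the 250 bases before the start site, were present in 9 of the 16 list members in the RefSeq promoter table (56.2%) and in 3.46% of all 27025 genes. Capitals mark the matches, which read as TTTC repeats where the element lies on the opposite strand. The windows are chr3:142620413-142620662 (plus strand) for Gbp2, chr11:58199306-58199555 (plus) for Igtp, chr3:142530086-142530335 (plus) for Gbp7 and chr5:120907526-120907775 (minus) for Oas1a.
Gbp2: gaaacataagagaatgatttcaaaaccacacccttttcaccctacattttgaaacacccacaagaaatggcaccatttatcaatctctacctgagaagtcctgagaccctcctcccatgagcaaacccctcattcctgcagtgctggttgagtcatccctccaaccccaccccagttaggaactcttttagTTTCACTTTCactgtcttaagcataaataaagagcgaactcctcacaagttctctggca
Igtp: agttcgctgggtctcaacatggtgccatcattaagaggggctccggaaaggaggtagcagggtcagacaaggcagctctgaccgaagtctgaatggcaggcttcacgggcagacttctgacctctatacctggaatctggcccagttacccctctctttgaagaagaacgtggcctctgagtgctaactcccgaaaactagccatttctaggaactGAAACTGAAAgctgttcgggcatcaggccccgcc
Gbp7: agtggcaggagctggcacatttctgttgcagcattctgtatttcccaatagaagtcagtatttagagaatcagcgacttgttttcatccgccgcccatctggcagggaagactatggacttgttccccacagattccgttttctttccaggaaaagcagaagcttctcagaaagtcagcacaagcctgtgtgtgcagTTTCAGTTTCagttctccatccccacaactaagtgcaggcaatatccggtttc
Oas1a: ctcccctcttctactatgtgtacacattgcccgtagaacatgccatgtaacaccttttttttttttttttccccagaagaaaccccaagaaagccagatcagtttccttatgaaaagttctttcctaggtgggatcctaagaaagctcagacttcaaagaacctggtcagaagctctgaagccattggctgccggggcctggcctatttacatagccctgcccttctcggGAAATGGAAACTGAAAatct
In Oas1a 2 overlapping matches lie within 20 to 5 bases of the start, in Igtp the match lies 34 to 25 bases before it, and in Gbp7 and Gbp2 53 to 44 and 59 to 50 bases before it. B2m, which did not pass, also holds a match, 139 to 130 bases before its start. The other 4 genes with matches were Ifit1, Ifit3, Isg15 and Irgm2. A match describes the letters and says nothing of binding in these samples.

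Secreted and oxidant defence fell as well. Of 13 tested antimicrobial and inflammatory genes of the epithelium 11 fell (84.6%, against 13.4% of all genes), with a median log2 fold change of -1.73. In 8 of the 13 all HFD libraries lay below all chow libraries, where 4.25% of all genes did. Reg3b, a lectin that kills bacteria in the mucus (chromosome 6, 78370657 to 78373466), stood at 14328, 24441 and 34670 CPM on chow and at 6144, 6567 and 12161 on HFD. The 3 floxed HFD libraries were almost equal at 6144 to 6266 CPM, the highest HFD library was IEKO 2 and the lowest chow library was IEKO 2, and the drop was 3.37-fold (log2 -1.75, SE 0.22, adjusted p = 2.5e-04). Nox1, a subunit of the oxidase that makes superoxide, fell 3.67-fold from 2.03 to 3.04 CPM down to 0.336 to 1.09 (log2 -1.88, adjusted p = 6.8e-05), and Saa2, a serum amyloid, 3.03-fold from 0.764 to 1.84 CPM down to 0.298 to 0.611. The paralogue Reg3g had a log2 fold change of -1.79, Saa1 one of -1.85, the dual oxidase Duox2 one of -0.90 and its maturation factor Duoxa2 one of -1.73. Reg4 (-0.12) and Lcn2 (-0.83) did not pass. Counts may be split within the similar pairs Reg3b and Reg3g, and Saa1 and Saa2. Adding the proximal score left 6 of the 13 lower, where 3.62% of all genes were, and the IEKO libraries alone gave 1, where 1.23% of all genes were lower. The list median was -1.46 in IEKO and -1.86 in floxed mice.

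**Figure D4:**
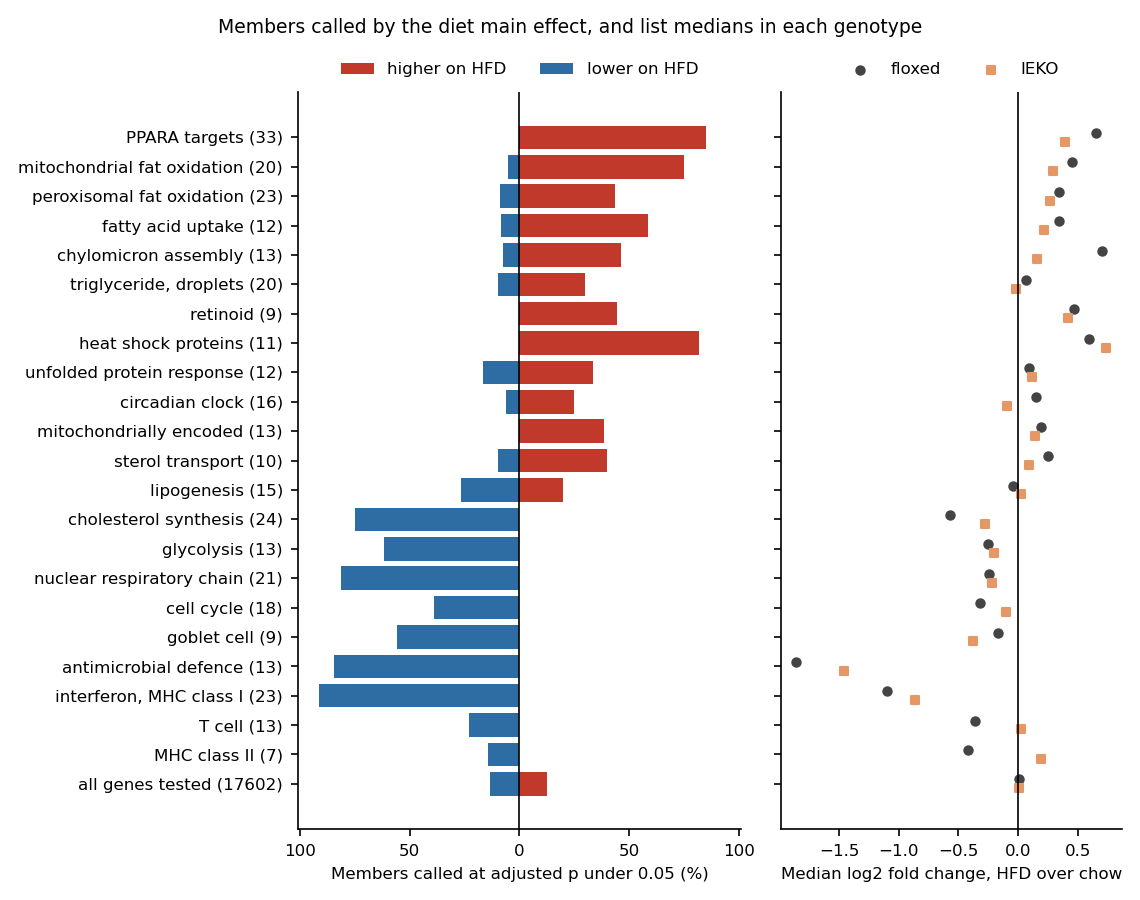
Left, share of tested members of each list (number tested in brackets) called higher (red) or lower (blue) on HFD, in percent, with all genes tested as the last row. Right, median log2 fold change HFD over chow of each list in floxed (circles) and IEKO mice (squares). The bars of PPARA targets (84.8% higher), heat shock proteins (81.8% higher), nuclear respiratory chain (81.0% lower), antimicrobial defence (84.6% lower) and interferon genes (91.3% lower) are far longer than those of all genes (12.5% and 13.4%).

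Among T cell markers, 3 of 13 fell (23.1%, against 13.4% of all genes), all of them products of activated cytotoxic cells. Gzmb, a killing protease, stood at 19.7, 33.0 and 41.6 CPM on chow and at 5.45, 7.83 and 13.9 on HFD. The diets did not overlap, and the drop was 3.86-fold (log2 -1.95, SE 0.23, adjusted p = 3.5e-04). Gzma fell 2.43-fold from 34.4 to 75.5 CPM down to 15.9 to 37.8 (adjusted p = 0.0016) and the chemokine Ccl5 1.44-fold (adjusted p = 0.023, lost without floxed chow 3, IEKO chow 1 or floxed HFD 3). The receptor and lineage genes Cd3d, Cd3e, Cd3g, Cd8a, Cd8b1, Trac, Trbc2 and Trdc did not pass, with log2 fold changes from -0.25 to 0.18, nor did the granule gene Nkg7 (-0.47). In edgeR none of 10 B and plasma cell markers and none of 11 myeloid markers passed (0 and 2 at an unadjusted p under 0.05), nor did any in DESeq2.

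Most heat shock protein genes rose. Of 11 tested chaperone genes 9 rose (81.8%, against 12.5% of all genes), with a median log2 fold change of 0.67 (0.59 in floxed and 0.74 in IEKO). In 7 of the 11 all HFD libraries lay above all chow libraries, where 3.94% of all genes did so. All 9 called genes had the larger fold change in IEKO mice, with no interaction at an unadjusted p under 0.05. Hspa1a, a stress-induced HSP70 (chromosome 17, 34969190 to 34972156), stood at 7.40, 9.59 and 21.6 CPM on chow and at 37.3, 73.3 and 105 on HFD. All HFD libraries exceeded all chow libraries, and the rise was 6.11-fold (log2 2.61, SE 0.34, adjusted p = 6.9e-04). Its near-identical neighbour Hspa1b rose 4.71-fold from 22.4 to 46.6 CPM up to 76.1 to 192, and counts of this pair may be split between them. Hsph1, a nucleotide exchange factor of HSP70, rose 2.54-fold from 35.3 to 47.7 CPM up to 71.4 to 137 (adjusted p = 1.5e-04), the co-chaperone Dnaja1 1.60-fold from 138 to 167 up to 222 to 270 (adjusted p = 1.8e-05), and Hspa8, the constitutive HSP70, 1.47-fold from 876 to 1209 up to 1425 to 1664. Hspe1 (log2 -0.05) and Hsf1 (0.26), the factor that drives heat shock genes, did not pass. The group kept 7 higher genes with the proximal score, where 2.94% of all genes rose, and 6 in the IEKO libraries alone, where 0.754% of all genes rose.

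The mitochondrial chaperone pair Hspd1 and Hspe1 is shown because both start from 1 shared stretch of sequence, while 1 of them passed the test and the other did not. The heat shock element, searched on both strands as GAA, TTC and GAA with any 2 bases between each, was found in 2 of 8 list members with a promoter in the table (25%), this pair, and in 0.514% of all genes. The window before Hspd1 is chr1:55087933-55088182, minus strand, with 2 overlapping matches in capitals on either strand 144 to 127 bases before the start.
Hspd1: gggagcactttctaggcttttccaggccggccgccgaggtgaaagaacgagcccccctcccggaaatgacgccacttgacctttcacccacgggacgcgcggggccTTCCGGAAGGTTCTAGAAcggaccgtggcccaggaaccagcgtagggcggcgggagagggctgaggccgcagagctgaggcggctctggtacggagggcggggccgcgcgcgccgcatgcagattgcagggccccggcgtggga
Hspd1 rose from 84.6 to 104 CPM up to 109 to 150 (log2 0.37, SE 0.08, adjusted p = 0.0038), while Hspe1, which reads from the same stretch in the other direction, stood at 19.3 to 29.6 on chow and 21.0 to 33.6 on HFD (log2 -0.05, SE 0.14, adjusted p = 0.84). The difference between the members of the pair was not tested.

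Some chaperones of the endoplasmic reticulum also rose. Of 12 genes of the unfolded protein and integrated stress responses 4 rose (33.3%, against 12.5% of all genes) and 2 fell (16.7%, near the 13.4% of all genes). Hyou1 (log2 0.40, adjusted p = 5.3e-04), Hspa5 (0.37, adjusted p = 7.1e-04) and Pdia4 (0.32, adjusted p = 0.0026), which fold secreted proteins, rose without overlap between the diets, and Herpud1 (0.37) rose with overlap. Hspa5, for example, stood at 529, 583 and 624 CPM on chow and at 699, 742 and 829 on HFD. Atf4 (-0.21) and Asns (-0.91), the asparagine synthetase that ATF4 induces, fell. Of 9 immediate early genes Junb (-0.44) and Atf3 (-0.90) fell (22.2%, against 13.4% of all genes) and Fos, Fosb, Jun, Egr1, Ier2, Dusp1 and Nr4a1 did not pass. Adding the proximal score left 3 stress response genes higher and 1 lower.

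Among 16 clock genes, the activators Arntl, Npas2 and Clock rose without overlap, Nfil3 rose and Ciart fell. The 4 that rose were 25.0% of the list, against 12.5% of all genes, and the 1 that fell was 6.25%, against 13.4%. Arntl, the core activator, stood at 4.77, 5.76 and 7.20 CPM on chow and at 7.34, 9.86 and 13.8 on HFD, a 1.71-fold rise (log2 0.78, SE 0.13, adjusted p = 6.4e-04). Npas2, which can pair with it in place of Clock, rose 1.56-fold from 5.60 to 7.30 CPM up to 8.03 to 12.1. The Per, Cry and Nr1d repressor genes and the output gene Dbp did not pass, with log2 fold changes from -0.29 to 0.19. Adding the proximal score left 3 clock genes higher and none lower. The labels used here give no hour of collection.

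Many genes of sugar burning and of the nuclear part of the respiratory chain were slightly lower. Of 13 glycolysis genes 8 fell (61.5%, against 13.4% of all genes) and none rose (median log2 fold change -0.20). The largest change was in Hk2, an inducible hexokinase, which fell 2.37-fold (log2 -1.25, SE 0.27, adjusted p = 0.0087) with overlapping libraries, 196 to 364 CPM on chow and 61.0 to 225 on HFD. Aldoa (log2 -0.39) and Pgk1 (-0.37), enzymes of the middle of the route, fell too. Without floxed HFD library 3, 5 glycolysis genes fell, without floxed chow library 1 and IEKO chow library 3 together 4 did, and with the proximal score none did.

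Of 21 nuclear-encoded subunits of the respiratory chain 17 fell (81.0%, against 13.4% of all genes), none rose and none separated the diets (median -0.23). Sdhc, a membrane anchor of complex II, went from 102 to 133 CPM down to 96.2 to 117 (log2 -0.27, adjusted p = 0.0051), and Cox4i1 of complex IV from 314 to 434 down to 294 to 372 (-0.31, adjusted p = 0.0052). The number that fell was 10 without floxed chow library 3, 10 without floxed HFD library 3, 9 without floxed chow library 1 and IEKO chow library 3 together, and 0 with the proximal score. Of 13 subunits that mitochondrial DNA encodes, 5 rose (38.5%, against 12.5% of all genes) and none fell. The 5 were mt-Nd4 (log2 0.65, adjusted p = 3.1e-04), mt-Nd5 (0.63, adjusted p = 3.1e-04), mt-Nd2 (0.48), mt-Nd6 (0.35) and mt-Cytb (0.35). For mt-Nd5 the chow libraries stood at 276, 330 and 435 CPM and the HFD libraries at 433, 539 and 586, so that the diets met at 1 library each. With the proximal score 2 of the 13 rose, where 2.94% of all genes did.

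**Figure D5:**
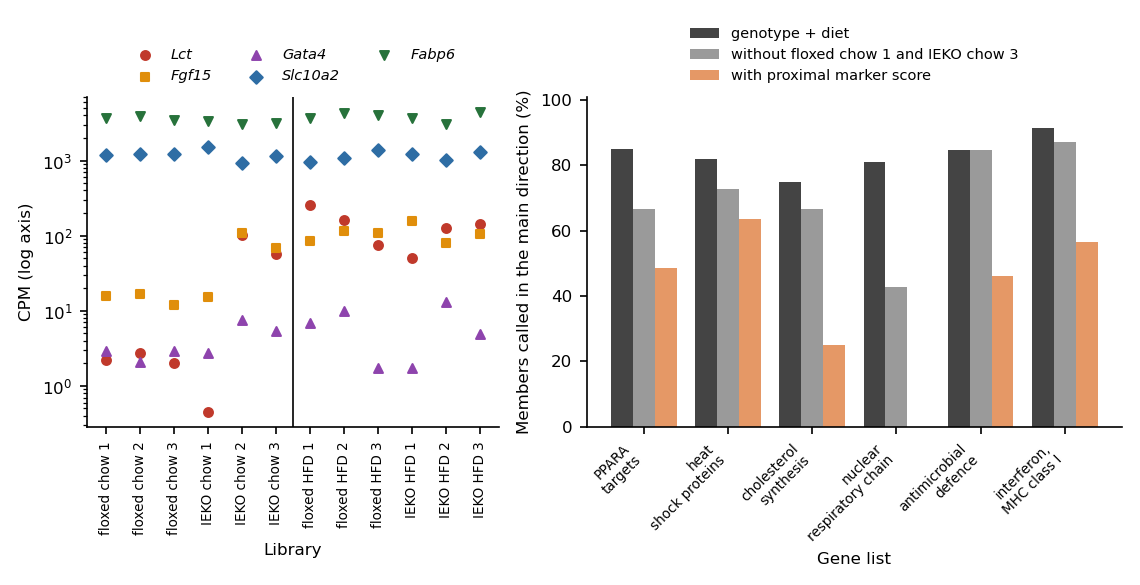
Left, CPM on a log axis of proximal (Lct, Gata4) and distal markers (Fgf15, Slc10a2, Fabp6) in each library, chow left of the black line. Lct and Fgf15 are low in the 3 floxed chow libraries and IEKO chow 1 and higher in IEKO chow 2 and 3, while Slc10a2 and Fabp6 overlap between the diets. Right, share of tested members of 6 lists called in the main direction in the fit of genotype and diet, without floxed chow 1 and IEKO chow 3, and with the proximal score as a covariate, where no respiratory chain gene was called.

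Of 7 genes of bile acid handling 2 rose (28.6%, against 12.5% of all genes) and 1 fell (14.3%, near the 13.4% of all genes). None was called with the proximal score or without the 2 intermediate chow libraries. Slc10a2, Fabp6, Slc51a and the receptor gene Nr1h4 did not pass, with log2 fold changes from -0.11 to 0.17, and Slc51b fell (-0.32, adjusted p = 0.020). Fgf15, the hormone that bile acids induce in the ileum, stood at 12.1 to 16.7 CPM in floxed chow, at 15.1, 109 and 69.3 in IEKO chow libraries 1 to 3 and at 79.5 to 159 on HFD. Its rise (3.43-fold, adjusted p = 0.039) passed in 3 of the 12 fits without 1 library, and with the proximal score its adjusted p was 0.19. Nr0b2, which encodes SHP, a nuclear receptor that represses bile acid synthesis, rose from 0 to 0.342 CPM up to 0.0844 to 1.51 (log2 2.74, SE 0.68, adjusted p = 0.011), and its adjusted p was 0.13 with the proximal score and 0.055 without floxed chow library 1 and IEKO chow library 3. Cubn, the ileal receptor for vitamin B12, rose 1.87-fold from 1061 to 2159 CPM up to 1994 to 3449 (adjusted p = 0.0045, and 0.093 with the proximal score). Lct itself did not pass (log2 3.23, adjusted p = 0.11), but its adjusted p was 0.046 without IEKO chow library 2. In that fit 1 of the 3 tested proximal markers was called higher and 1 lower. Over all 12 libraries none of the 3 was called. Their median log2 fold change was 0.77, and 1 of them was negative in each genotype. The colon and surface epithelium gene Car4, a carbonic anhydrase, fell 2.38-fold from 112 to 310 CPM down to 79.6 to 112, so that the diets touched. Car1 went from 0.261 to 1.23 CPM on chow to 0 to 0.0611 on HFD, too few counts for a fold change. Of 4 tested colon markers these 2 were called lower, while Slc26a3 rose (log2 0.21, adjusted p = 0.011). With the proximal score 1 colon marker was lower and none higher.

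Vitamin A and sugar genes rose in part. Rbp2, the retinol carrier of enterocytes, stood at 82.7, 88.5 and 103 CPM on chow and at 157, 210 and 335 on HFD. The diets did not overlap, and the rise was 2.50-fold (log2 1.32, SE 0.17, adjusted p = 4.9e-04), with an adjusted p of 0.0080 with the proximal score. The 4 called vitamin A genes were 44.4% of the 9 tested, against 12.5% of all genes, and Rbp2 was the only 1 of them that rose in that fit. Aldh1a1 (log2 0.69), which makes retinoic acid, Cyp26b1 (1.06), which destroys it, and Lrat (0.44) rose with overlap, the last not without floxed chow library 1 or IEKO chow library 1. In the sugar list G6pc, Slc2a2, a basolateral glucose carrier (log2 2.15, adjusted p = 0.036), Tkfc (0.47) and Khk (0.29), which process fructose, rose. These 4 were 36.4% of the 11 tested, against 12.5% of all genes. With the proximal score G6pc alone of these rose (adjusted p of 0.14 for Tkfc and 0.44 for Khk), and without the 2 intermediate chow libraries 2 of the 4 did. Slc2a2 stood at 0.720, 29.7 and 15.3 CPM in IEKO chow libraries 1 to 3 against 4.87 to 5.53 in floxed chow, the order that Lct had in the IEKO libraries, while the sucrase gene Sis (0.18) and the sodium glucose carrier Slc5a1 (-0.08) did not pass.

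Of 7 metallothionein and zinc genes 4 fell (57.1%, against 13.4% of all genes) and 2 rose (28.6%, against 12.5%). Besides Mt2, its neighbour Mt1 fell, from levels that differed between the genotypes. It stood at 41.6 to 50.5 CPM in floxed chow and 13.2 to 20.0 in floxed HFD, but at 240 to 249 in IEKO chow and 168 to 195 in IEKO HFD. The diets separated within each genotype and overlapped across them, and the drop was 1.88-fold (log2 -0.91, SE 0.18, adjusted p = 0.0042). The genotype by diet interaction of Mt1 did not pass (log2 fold change -1.41 in floxed and -0.44 in IEKO, adjusted p = 0.33). Of the zinc carriers, Slc39a4, which imports zinc, rose from 216 to 249 CPM up to 268 to 344 (log2 0.37, adjusted p = 3.0e-04), Slc30a10 rose (0.39), and Slc30a1 (-0.31) and Slc39a5 (-0.21) fell. Of 12 NRF2 and glutathione genes Gsta3 (log2 -1.26, adjusted p = 2.7e-04), Gsta1 (-0.62), Gstm1 (-0.60) and Nqo1 (-0.52) fell and Gclc (0.41) rose. The 4 that fell were 33.3% of these genes, against 13.4% of all genes, and the 1 that rose was 8.33%, against 12.5%. The proximal-score fit gave 2 lower and 1 higher of the zinc list, and 3 lower and none higher of the glutathione list. Over all genes 3.62% were lower and 2.94% higher in that fit.

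Genes of peptide uptake and of cell junctions changed in both directions. Of 17 peptidase and amino acid transport genes 5 rose (29.4%, against 12.5% of all genes) and 3 fell (17.6%, near the 13.4% of all genes). Xpnpep2, a brush border aminopeptidase, stood at 377, 436 and 537 CPM on chow and at 583, 670 and 826 on HFD. No libraries overlapped, and it rose 1.56-fold (log2 0.64, SE 0.10, adjusted p = 3.5e-04). Slc7a9, a transporter of cystine and basic amino acids, fell from 307 to 380 CPM down to 251 to 294, also without overlap (log2 -0.36, adjusted p = 7.3e-04). Of 11 tight junction genes 2 rose (18.2%, near the 12.5% of all genes) and 4 fell (36.4%, against 13.4%). Cldn23, a claudin, fell 1.42-fold from 38.4 to 46.0 CPM down to 25.7 to 31.8 (adjusted p = 6.8e-05), while the pore-forming claudin gene Cldn2 rose from 130 to 150 CPM up to 152 to 189 (log2 0.25, adjusted p = 0.0070). Both lists shrank to 1 gene higher and 1 lower with the proximal score. Without the 2 intermediate chow libraries 3 peptide genes rose and 2 fell, and 1 junction gene rose and 3 fell.

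Some markers of epithelial cell types changed. Of 9 goblet cell markers 5 fell (55.6%, against 13.4% of all genes) and none rose. Spink4, a secreted peptide, stood at 236, 319 and 379 CPM on chow and at 99.6, 119 and 140 on HFD. The diets lay far apart, and the drop was 2.66-fold (log2 -1.41, SE 0.11, adjusted p = 8.6e-06). Spdef, the transcription factor of goblet cell maturation (log2 -0.40), Agr2, which folds mucin (-0.41), Tff3 (-0.37) and the mucin Muc2 (-0.27) fell by less, Muc2 not without IEKO HFD library 2. The mucus proteins Fcgbp, Clca1 and Zg16 and the lineage factor Atoh1 did not pass. Of the 9, 3 fell with the proximal score, where 3.62% of all genes did.

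Of 9 Paneth cell markers Itln1 (log2 0.38), Defa22 (0.39), Defa21 (0.34) and Defa24 (0.32) rose and the protease Mmp7 fell (-0.39), while the lysozyme Lyz1 did not pass. The 4 that rose were 44.4% of these markers, against 12.5% of all genes, and the 1 that fell was 11.1%, near the 13.4% of all genes. None of the 9 rose or fell with the proximal score, and without the 2 intermediate chow libraries 1 rose. The number of Paneth markers that rose was 2 without floxed chow 1, floxed chow 3, floxed HFD 2 or IEKO HFD 3, and defensin counts may be split between near-identical genes. Of 13 hormone and enteroendocrine markers Sst (somatostatin, log2 0.74, adjusted p = 4.4e-05), Neurod1 (0.57), Chga (0.31) and Nts (0.27) rose, and Cck (-0.49) fell besides Tac1. The 4 that rose were 30.8% of these markers, against 12.5% of all genes, and the 2 that fell were 15.4%, near the 13.4% of all genes. Sst stood at 7.14, 9.24 and 10.0 CPM on chow and at 13.2, 15.1 and 16.9 on HFD, without overlap. Without floxed chow library 1 the number that rose was 2, and with the proximal score 1 hormone marker rose and 1 fell.

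In the crypt, the stem cell receptor gene Lgr5 (log2 0.15) and Olfm4 (-0.19) did not pass, Aqp4, a water channel of crypt base cells, fell 2.60-fold from 12.7 to 29.2 CPM down to 5.23 to 9.40 (adjusted p = 9.6e-04), and Lrig1, Smoc2 and Ephb2 fell by at most 0.32 on the log2 scale. Tnfrsf19 rose (0.56). Of 14 tested stem cell and crypt genes 4 fell (28.6%, against 13.4% of all genes) and 1 rose (7.14%, against 12.5%). The other 9 did not pass, and the list median was 0.03. With the proximal score 2 of the 14 fell, where 3.62% of all genes did, and none rose. Without floxed chow library 1 and IEKO chow library 3 together 3 fell and none rose. Of 18 cell cycle genes 7 fell (38.9%, against 13.4% of all genes) and none rose. All 7 have a role in mitosis or entry to it: Cdc20 (-0.55), Ccnb1 (-0.49), Ccna2 (-0.42), Birc5 (-0.41), Cdk1 (-0.38), Top2a (-0.31) and Aurkb (-0.26). Mki67, Bub1 and the replication genes Mcm2, Mcm3, Mcm4, Mcm5, Mcm6 and Mcm7 did not pass. The number of cell cycle genes that fell was 4 without floxed chow 3, IEKO chow 1, floxed HFD 2, floxed HFD 3 or IEKO HFD 3, 2 without floxed chow library 1 and IEKO chow library 3 together, and 0 with the proximal score.

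Of general epithelial markers, the keratins Krt19 and Krt8 (both log2 -0.45), Krt20 (-0.27), Krt18 (-0.24) and the factor Cdx2 (-0.20) fell, and Epcam, Cdh1, Vil1, Cdx1 and Hnf4a did not pass. Of the 10, 4 fell with the proximal score. The summed level of the 10 genes ran from 14819 to 18029 CPM on chow and from 12718 to 15701 on HFD. Among supporting tissues, smooth muscle markers did not share 1 direction. Their fold changes were negative for 10 of 12 in floxed mice (median log2 -0.38) and positive for 12 of 12 in IEKO mice (median 0.81), with 9 interactions at an unadjusted p under 0.05. Their sum was 275 to 285 CPM in floxed chow, 257 to 330 in floxed HFD, 243 to 261 in IEKO chow and 362 to 376 in IEKO HFD. Over both genotypes 1 of the 12 was called, Mylk (0.31, and an adjusted p of 0.068 with the proximal score). The fibroblast receptor genes Pdgfrb (0.77) and Pdgfra (0.66) and the endothelial genes Cdh5 (0.61) and Pecam1 (0.35) rose, while the collagens Col1a1, Col1a2 and Col3a1 did not pass. They were 2 of 7 tested fibroblast markers (28.6%) and 2 of 6 endothelial markers (33.3%), against 12.5% of all genes. The list medians were 0.04 and 0.38. The endothelial gene Vwf (-0.06) did not pass, and Pecam1 was called in 7 of the 12 fits without 1 library. In the proximal-score fit Pdgfrb was called (adjusted p = 0.015) and Pdgfra, Cdh5 and Pecam1 were not (0.051, 0.071 and 0.44). The part of these cell types in the other results was not tested. With a smooth muscle score as a covariate 5205 genes (29.6%) were called by the diet effect. The mean of that score went from 3.27 on chow to 2.86 on HFD in floxed mice and from 3.02 to 3.70 in IEKO mice. Since it did not move in 1 direction with diet, this fit is no test of the part of cell types.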

How the data were processed

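Expected counts per gene were made by the authors and are used as deposited; per the submitters' processing notes, reads were handled with Trimmomatic, STAR, Picard and RSEM on mm10. No source used here gives the annotation release or the strand setting. Libraries were TruSeq Stranded Total RNA, per the labels. From 12.3% to 13.2% of genes per library had non-whole values, which were rounded. IDs of 47224 genes matched GENCODE symbols, and no per-sample column was left unused. Genes were filtered by edgeR's filterByExpr over the 4 groups, scaled by TMM (CPM use the scaled library sizes) and tested for diet, with genotype as a covariate, by the robust quasi-likelihood method of edgeR 4.0.16 in R 4.3.3, called at a Benjamini-Hochberg adjusted p under 0.05. A fit of 4 group means gave the differences within genotypes and the interaction. On simulated counts for 17322 genes, 71.6% of 1.5-fold, 92.5% of 2-fold and 100% of 4-fold changes were called, with 10 false calls. Those changes were put into 67, 67 and 66 genes, none of them among the lowest expressed. The simulated libraries were independent and had no genotype effect or difference in the stretch of intestine, so these rates need not hold for the real libraries.

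Named were Ppara, the 12 largest called increases and decreases (mean log2 CPM of at least 1, diets not overlapping, established symbols), up to 3 called members with the smallest p from each gene list, segment markers, and any member of lists of 9 or fewer. Other members that complete a count were named after their values were seen. The lists and rules were chosen with earlier results of these data known. Alternatives were DESeq2 1.42.0 size factors and Wald test, 2 other filters, other designs, each genotype alone, libraries left out, and proximal or smooth muscle scores (mean log2(CPM + 0.5) of markers) as covariates. Some members that these rules name are counted in their lists but not reported singly here.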

Additional observations from a re-analysis of the deposited data

Results flagged for a closer look

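Ighv1-22, an immunoglobulin heavy chain segment, was the 1 gene of 17602 whose diet effect differed between the genotypes in edgeR's interaction test (log2 difference -2.49, IEKO minus floxed, adjusted p = 0.046). Its level was 0.492 to 1.08 CPM in floxed chow, 1.77 to 1.89 in floxed HFD, 2.71 to 2.93 in IEKO chow and 0.917 to 1.29 in IEKO HFD, so it was higher on HFD in all 3 floxed libraries and lower in all 3 IEKO libraries. The diet effect over both genotypes was -0.08 on the log2 scale. Reads of near-identical segments may be shared between them.

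Lum, a proteoglycan of fibroblasts, was lower on HFD in every floxed library (0.844 to 1.25 CPM on chow, 0.627 to 0.795 on HFD) and higher in every IEKO library (0.395 to 0.574 and 0.611 to 0.788). The log2 difference was 1.07, and its interaction test did not pass (edgeR adjusted p = 0.70).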

How the results depend on the processing

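No named gene that the test called changed sign under any alternative run. More genes were lower than higher, but in the floxed libraries alone more were higher (1760 against 1655). The MHC class II count of 1 lower became 1 higher in the IEKO libraries alone. The 4562 calls (2206 higher, 2356 lower) became 2572 (1044 and 1528) without floxed chow library 1 and IEKO chow library 3, with 2539 shared, 1155 (517 and 638) with the proximal score, with 1086 shared, and 335 (127 and 208) in the IEKO libraries alone. With 1 library left out at a time the calls ran from 3525 to 5354, from 1479 to 2574 higher and from 1861 to 2780 lower. Under the other alternatives, which were the scaling, the DESeq2 Wald test (4950), the filters, the designs, the floxed libraries alone (3415) and the smooth muscle score, each count stayed within 1.5 times. With replicate number as a block 4525 genes were called. No sign was seen that the numbers pair the libraries. Deviations of same-numbered libraries correlated at -0.16 to 0.21 (18 pairs) and of others at -0.29 to 0.32 (36 pairs). Deviations from a mean of 3 libraries depend on each other, so this check cannot settle the question.

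Of the 150 called named genes, 134 were called in all 12 fits without 1 library, 132 in the floxed libraries alone, 48 in the IEKO libraries alone and 44 under every alternative. The spread between libraries was a coefficient of variation of 0.0583 in floxed chow and 0.14 to 0.152 in the other groups. At 33.6 to 54.0 counts per CPM, changes in genes near 1 CPM rest on few counts.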
